A study of Mus musculus with 10 samples.

Results

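The genes described here are the 8 members of the suppressor of cytokine signalling family, Cish and Socs1 to Socs7, which were taken from the count table by their Ensembl mouse identifiers. All 8 were found among the 55573 genes of the table, and all 8 were among the 12772 genes with enough counts to be tested. The RNA came from mouse cells labelled as bone marrow B-cells, in 2 groups, GFP high (labelled quiescent, 5 libraries) and GFP low (labelled proliferating, 5 libraries). Both groups carried the genotype PAX5-ELN H2B-GFP, were treated with doxycycline and were given a time of 35 days. PAX5-ELN is a fusion of a B-lineage transcription factor gene with the elastin gene, known from B-cell acute lymphoblastic leukemia, and H2B-GFP is a histone tagged with a green fluorescent protein that is diluted as cells divide. The promoter that drives each transgene, the age of the mice, the doxycycline schedule and whether each library came from 1 animal were not stated in the labels, so a p-value covers the spread among these libraries alone, which may be technical. No group without the fusion was analysed here.

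Cytokine receptors of blood cells signal through Janus kinases (JAKs), which phosphorylate the receptor and then the STAT transcription factors. STAT factors switch on genes of the Socs family, and the proteins made from them bind phosphorylated receptors or the kinases through an SH2 domain and so form a feedback loop. A SOCS box at the end of each protein recruits elongins B and C and a cullin, which together can mark the bound partner for degradation. In B-cell progenitors the main such cytokine is IL-7, which acts through JAK1, JAK3 and STAT5.

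The promoters of Cish and Socs3 are shown because these members had the largest fold changes of the family, and because Cish is the textbook target of STAT5 and Socs3 of STAT3. Both factors bind the palindrome TTCNNNGAA, which reads the same on both strands and is set in capitals. The sequences are from RefSeq (build GRCm38.p6, 250 bases before to 50 after the annotated start, in the direction of transcription). Cish lies at chr9:107296409-107296708 on the plus strand and Socs3 at chr11:117969317-117969616 on the minus strand.
Cish: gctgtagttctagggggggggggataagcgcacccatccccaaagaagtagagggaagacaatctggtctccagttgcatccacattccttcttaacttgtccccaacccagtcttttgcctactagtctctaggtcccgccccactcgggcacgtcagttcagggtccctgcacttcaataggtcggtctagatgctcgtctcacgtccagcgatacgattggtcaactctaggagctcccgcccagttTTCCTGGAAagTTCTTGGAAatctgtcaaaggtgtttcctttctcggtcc
Socs3: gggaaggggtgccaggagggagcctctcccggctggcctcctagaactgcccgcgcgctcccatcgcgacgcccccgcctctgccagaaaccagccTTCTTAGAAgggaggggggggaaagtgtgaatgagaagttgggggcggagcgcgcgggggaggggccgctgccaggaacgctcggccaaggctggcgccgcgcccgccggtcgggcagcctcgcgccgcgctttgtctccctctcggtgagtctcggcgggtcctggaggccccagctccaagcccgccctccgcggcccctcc
The Cish promoter held 2 matches that did not overlap each other, TTCCTGGAA at bases 1 to 9 and TTCTTGGAA at bases 12 to 20 counted from the RefSeq start, which lie 51 and 40 bases before a later start in the GENCODE annotation. The Socs3 promoter held 1, TTCTTAGAA, at bases -154 to -146. In GENCODE the Cish gene begins earlier, at 107296026, and the Socs3 gene begins at 117970047 on the minus strand. The matches thus lie inside both genes as annotated there. Of 32851 RefSeq promoters of this length, 8.3% held at least 1 match and 0.457% held at least 2. The promoters of Socs1 and Socs4 held no match in this window. Those of Socs2, Socs5, Socs6 and Socs7 were missing from the promoter set used and were not searched. A match is a run of letters and was not tested as a binding site.

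Total counts ranged from 11347097 to 13838769 for GFP high and from 10640894 to 14858520 for GFP low, and every member had at least 95 counts in each library, so none was near the limit of detection. The labels were checked by markers. The summed level of 12 B-cell progenitor genes was 13930 to 16180 CPM (counts scaled to a common library size) in GFP high and 10470 to 11960 CPM in GFP low. Of these 12, 5 were called higher and 0 lower in edgeR (10 and 0 in the paired fit described below). Over all genes tested, 12.0% were called higher and 15.4% lower, and 20.7% higher in the paired fit. Blnk, named after its values were seen, had a log2 fold change of -0.54 (edgeR adjusted p = 0.39). It was -1.50 in libraries 4 and 5 alone (edgeR adjusted p = 0.00461). All 6 proliferation genes checked fell in GFP high. The libraries stood apart in a second way. The first principal component (34.2% of the variance) separated the groups, while the second (20.5%) placed the libraries numbered 1 to 3 of both groups apart from those numbered 4 and 5. No label gives a batch. Of all genes tested, 5.83% were higher in all 6 libraries numbered 1 to 3 than in all 4 numbered 4 and 5, and 4.88% were lower, so results are also given within these sets, which were chosen after the data were seen. Libraries with the same number also resembled each other across groups. A fit that keeps the pairs together (a replicate block) is given beside each member or pathway list whose calls it changes. Its calls in the marker lists of other cells are given with those lists where they differ.

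Cish and Socs2, both induced by STAT5, rose in GFP high. Cish was 2.69-fold and Socs2 1.35-fold higher, and for both genes the lowest GFP high library lay above the highest GFP low library. Socs3, which restrains IL-6 family and G-CSF receptors, was 2.27-fold higher in the unpaired fit, where it did not pass, and passed in the paired fit. Socs1, Socs5 and Socs6 likewise passed in the paired and not in the unpaired fit, Socs4 and Socs7 passed in neither fit, and no member fell. In all, 2 of 8 members were called higher without pairs, where 12.0% of all tested genes were called higher and 15.4% lower, and 6 of 8 with pairs, where 41.8% of all genes tested were called and 20.7% were called higher (edgeR's quasi-likelihood fit, p adjusted by Benjamini-Hochberg over all genes tested, threshold 0.05). DESeq2 and limma-voom also called 0 members lower, where they called 16.5% and 15.8% of all genes lower, and 0 members in edgeR had an unadjusted p under 0.05 with a log2 fold change below 0. DESeq2 with the replicate block called the same 6 members higher, against 21.9% of all genes.

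**Figure D1:**
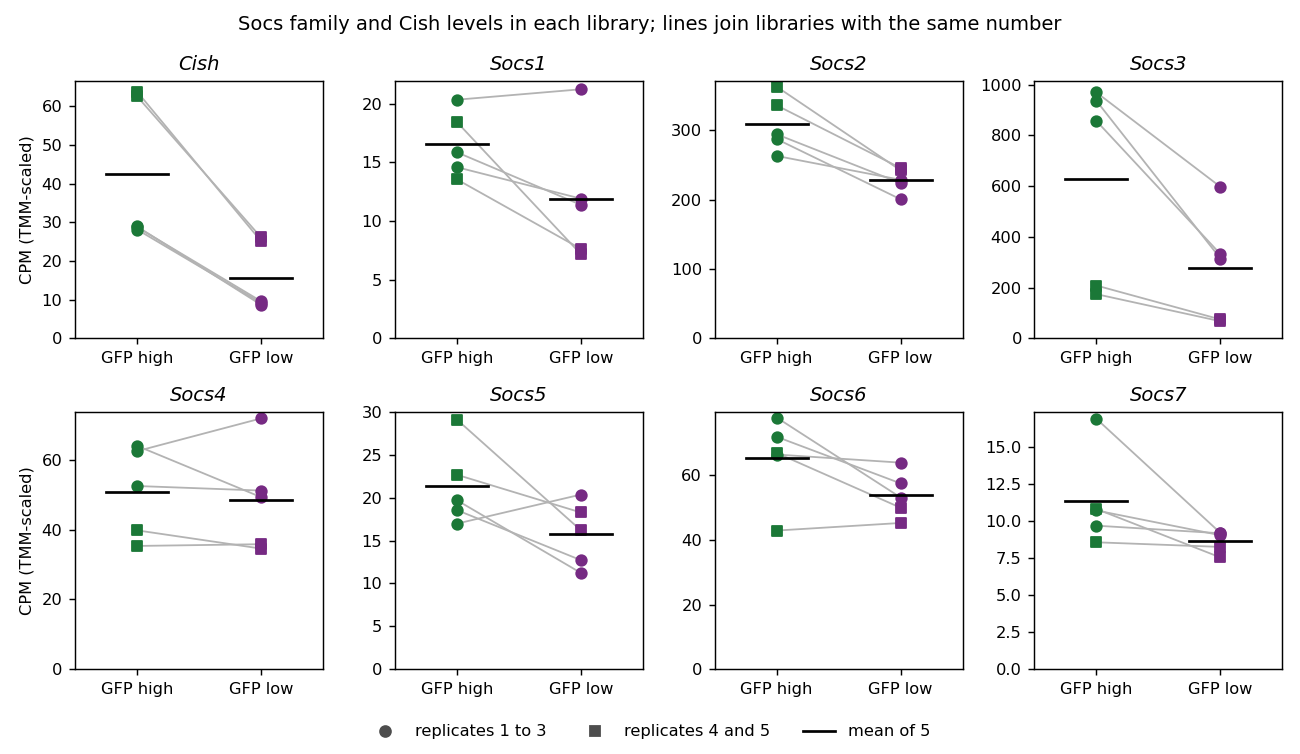
Level of each member (CPM on TMM-scaled library sizes, each axis from 0) in the 5 GFP high libraries, left, and the 5 GFP low libraries, right, with grey lines joining libraries of the same number, circles for replicates 1 to 3, squares for replicates 4 and 5 and a bar at the mean. Cish and Socs2 do not overlap between groups, while Socs3 spans 174 to 969 CPM in GFP high against 67.4 to 597 CPM in GFP low.

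Cish encodes the founding member of the family, which binds cytokine receptors at sites that STAT5 also uses. Cish (ENSMUSG00000032578, chromosome 9, 107296026 to 107302784, build mm10) had 28.9, 28.2, 28.8, 62.6 and 63.8 CPM in GFP high libraries 1 to 5, against 8.68, 9.19, 9.59, 26.1 and 25.1 CPM in GFP low libraries 1 to 5. Libraries 4 and 5 were the highest in each group, and the GFP low libraries 4 and 5 came close to the GFP high libraries 1 to 3 without reaching them. Cish averaged 42.5 ± 18.95 CPM in GFP high against 15.7 ± 9.03 CPM in GFP low (± SD, n = 5 per group). The log2 fold change was 1.43 ± 0.39 (SE, edgeR adjusted p = 0.0157). Within replicates 1 to 3 it was 1.67 ± 0.16 (edgeR adjusted p = 0.0003) and within replicates 4 and 5 it was 1.29 ± 0.13 (edgeR adjusted p = 8.23e-05). The antisense genes Gm17040 and Gm17041 overlap Cish in the annotation and were listed at 0 to 4 and at 0 counts, and the labels do not say whether counting used strand.

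Socs2 encodes the restraint of growth hormone signalling whose loss gives oversized mice. Socs2 (ENSMUSG00000020027, chromosome 10, 95385362 to 95417180) had 263, 287, 294, 336 and 363 CPM in GFP high libraries 1 to 5, against 228, 200.3, 224, 245 and 242 CPM in GFP low libraries 1 to 5. The groups did not overlap, and the GFP low libraries lay closer together than the GFP high libraries. Socs2 averaged 309 ± 40.1 CPM in GFP high against 228 ± 17.9 CPM in GFP low (± SD, n = 5 per group), and its log2 fold change was 0.44 ± 0.10 (SE, edgeR adjusted p = 0.00586). The log2 fold change was 0.40 within replicates 1 to 3 and 0.50 within replicates 4 and 5, past the threshold in each. Cish and Socs2 were thus the members whose CPM did not overlap between groups with GFP high above, 2 of 8, against 7.92% of all genes tested.

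Socs3 encodes an inhibitor that binds the receptor chain shared by IL-6 cytokines and blocks the JAKs attached to it. Socs3 (ENSMUSG00000053113, chromosome 11, 117966079 to 117970047) had 969, 936, 857, 208 and 174 CPM in GFP high libraries 1 to 5, against 597, 314.5, 332, 74.5 and 67.4 CPM in GFP low libraries 1 to 5. The groups overlapped, since the GFP high libraries 4 and 5 lay below the GFP low libraries 1 to 3. Every GFP high library was nevertheless above the GFP low library of its number. Socs3 averaged 629 ± 402 CPM in GFP high against 277 ± 219 CPM in GFP low (± SD, n = 5 per group). The log2 fold change of 1.18 ± 0.63 (SE) did not pass (edgeR adjusted p = 0.185), while with the replicate block it was 1.29 ± 0.10 and passed (edgeR adjusted p = 1.08e-06). It passed within replicates 1 to 3 (1.18 ± 0.21, edgeR adjusted p = 0.00364) and within replicates 4 and 5 (1.42 ± 0.12, edgeR adjusted p = 2.42e-05) as well. In replicates 1 to 3, 3 members were called higher (Cish, Socs2 and Socs3), where 10.8% of all genes tested were, and in replicates 4 and 5, 4 members were (with Socs1), where 10.3% of all genes tested were.

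Socs1 encodes the other member that blocks JAK activity directly, and is known as a restraint of interferon gamma and IL-7 receptor signalling. Socs1 (ENSMUSG00000038037, chromosome 16, 10782240 to 10785536) had 20.3, 15.9, 14.6, 13.6 and 18.4 CPM in GFP high libraries 1 to 5, against 21.2, 11.4, 11.9, 7.63 and 7.18 CPM in GFP low libraries 1 to 5. GFP low library 1 was the highest of all 10, and the other GFP low libraries lay below every GFP high library. The log2 fold change was 0.48 ± 0.27 (SE, edgeR adjusted p = 0.212). The replicate block brought it past the threshold (0.57 ± 0.19, edgeR adjusted p = 0.0315), as did leaving out GFP low library 1 (0.80, edgeR adjusted p = 0.0145). Within replicates 1 to 3 the log2 fold change was 0.21 (edgeR adjusted p = 0.607) and within replicates 4 and 5 it was 1.09 (edgeR adjusted p = 0.0111). The difference between these sets, 0.87 ± 0.32 on the log2 scale, did not pass as an interaction term, a test added after the data were seen (edgeR adjusted p = 0.757).

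**Figure D2:**
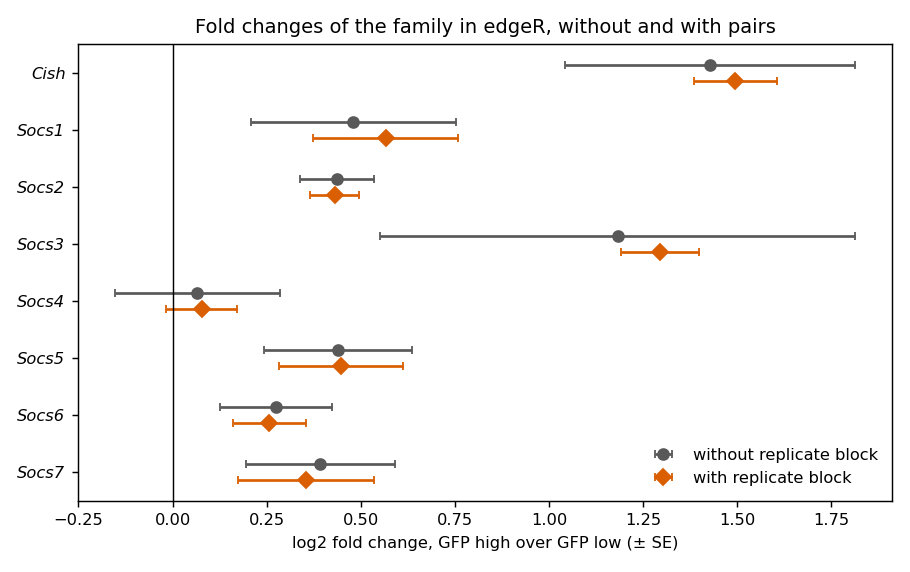
Log2 fold change of each member, GFP high over GFP low, with its SE as a bar, from the edgeR fit without the replicate block (grey circles) and with it (orange diamonds). The block shortens the bar of Socs3 from 0.63 to 0.10 and that of Cish from 0.39 to 0.11, with log2 fold changes of 1.29 and 1.495 in the paired fit.

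The remaining members, whose proteins are longer at their amino-terminal side and are known mainly from growth factor and insulin receptors, were not called in the unpaired fit. Socs5 (ENSMUSG00000037104, chromosome 17, 87107679 to 87137839) ranged from 17.0 to 29.1 CPM, median 19.7, in GFP high and from 11.2 to 20.4 CPM, median 16.2, in GFP low. It was higher in GFP high in 4 of 5 pairs and lower in pair 1. Its log2 fold change was 0.44 ± 0.20 (SE, edgeR adjusted p = 0.117), and the paired fit gave 0.45 ± 0.16 (edgeR adjusted p = 0.0445).

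Socs6 encodes a partner of the receptor KIT, among others. Socs6 (ENSMUSG00000056153, chromosome 18, 88665224 to 88927481) had 66.5, 72.0, 77.9, 67.0 and 42.9 CPM in GFP high libraries 1 to 5, against 64.0, 57.5, 53.2, 50 and 45.3 CPM in GFP low libraries 1 to 5. GFP high library 5 was the lowest of all 10, and the other GFP high libraries lay above every GFP low library. The log2 fold change was 0.27 ± 0.15 (SE, edgeR adjusted p = 0.194). The paired fit put it just past the threshold (0.26 ± 0.10, edgeR adjusted p = 0.0498), and so did leaving out GFP high library 5 without pairs (0.41, edgeR adjusted p = 0.0163).

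Socs7 and Socs4 passed in neither fit. Socs7 (ENSMUSG00000038485, chromosome 11, 97362551 to 97398542), a regulator of insulin signalling, was the least abundant member per length, and had 9.69, 10.7, 16.9, 10.8 and 8.57 CPM in GFP high libraries 1 to 5 against 9.18, 9.05, 9.20, 7.55 and 8.26 CPM in GFP low libraries 1 to 5. It was higher in GFP high in 5 of 5 pairs, yet 3 of these differences were under 0.25 on the log2 scale. Its log2 fold change was 0.39 ± 0.20 (SE, edgeR adjusted p = 0.161), or 0.20 without GFP high library 3. Socs4 (ENSMUSG00000048379, chromosome 14, 47276931 to 47296102), known from epidermal growth factor receptor turnover, had 52.5 to 64.1 CPM in GFP high libraries 1 to 3 and 35.4 to 39.8 CPM in GFP high libraries 4 and 5, against 49.3 to 71.9 CPM in GFP low libraries 1 to 3 and 34.6 to 35.9 CPM in GFP low libraries 4 and 5. Its log2 fold change was 0.07 ± 0.22 (SE, edgeR adjusted p = 0.852), and 0.08 ± 0.09 with the replicate block.

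**Figure D3:**
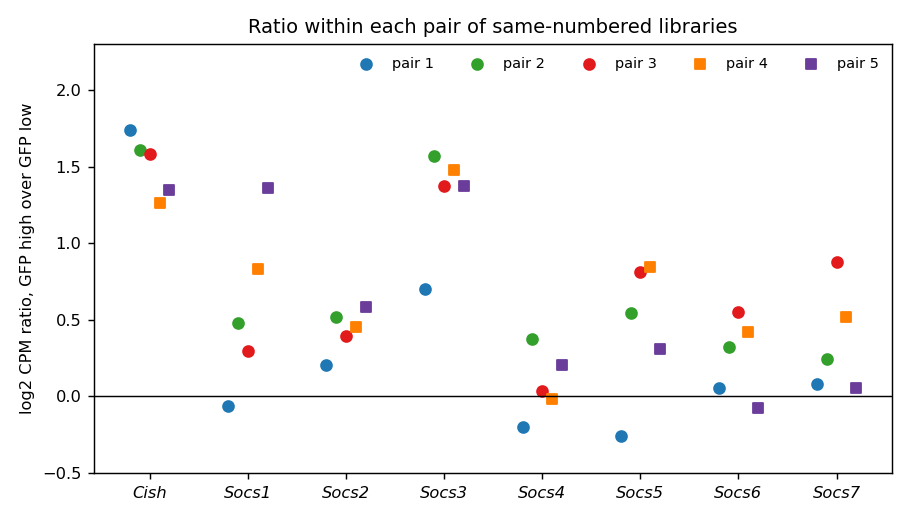
Log2 ratio of CPM, GFP high over GFP low, within each pair of same-numbered libraries (y axis) for each member (x axis), with circles for pairs 1 to 3 and squares for pairs 4 and 5. All 5 ratios lie between 1.26 and 1.74 for Cish, between 0.70 and 1.57 for Socs3 and between 0.20 and 0.58 for Socs2, while those of Socs4 fall on both sides of 0.

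Ratios within pairs varied less than levels did for Cish and Socs3. The log2 ratio of Cish had an SD of 0.197 over the 5 pairs, where its log2 CPM had an SD of 0.63 among GFP high and 0.82 among GFP low libraries. For Socs3 the SD was 0.345 over pairs, against 1.25 among GFP high and 1.41 among GFP low libraries. Pair 1 gave the lowest ratio for Socs1, Socs2, Socs3, Socs4 and Socs5 but the highest for Cish. Cish, Socs2, Socs3 and Socs7 were higher in GFP high in all 5 pairs, 4 of 8 members, against 22.9% of all genes tested.

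Levels were compared between members per kilobase of merged exons, which understates a gene whose transcripts use only part of them. In GFP high, Socs3 stood highest at 218 ± 139 CPM per kb (SD, n = 5), followed by Socs2 at 32.4 ± 4.20 CPM per kb, and the ranges of these did not overlap. Socs4 (7.40), Cish (6.61), Socs6 (5.75) and Socs1 (5.69 CPM per kb) overlapped in range. Socs5 averaged 3.34 CPM per kb and overlapped with Cish and Socs6, and Socs7 was lowest at 1.56 CPM per kb, below the whole range of Socs5. In GFP low, Socs3 at 95.8 ± 75.7 CPM per kb and Socs2 at 23.9 ± 1.88 CPM per kb overlapped, and Cish at 2.45 ± 1.41 CPM per kb stood beside Socs5 at 2.46 ± 0.59 CPM per kb. Socs4 (7.07), Socs6 (4.76) and Socs1 (4.08 CPM per kb) lay between these and Socs2, with ranges that overlapped, and Socs7 was again lowest, at 1.19 CPM per kb. Summed over the family, the level was 357 to 393 CPM per kb in GFP high libraries 1 to 3 and 129 to 139 CPM per kb in GFP high libraries 4 and 5, against 151 to 260 CPM per kb in GFP low libraries 1 to 3 and 68.1 to 71.4 CPM per kb in GFP low libraries 4 and 5.

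**Figure D4:**
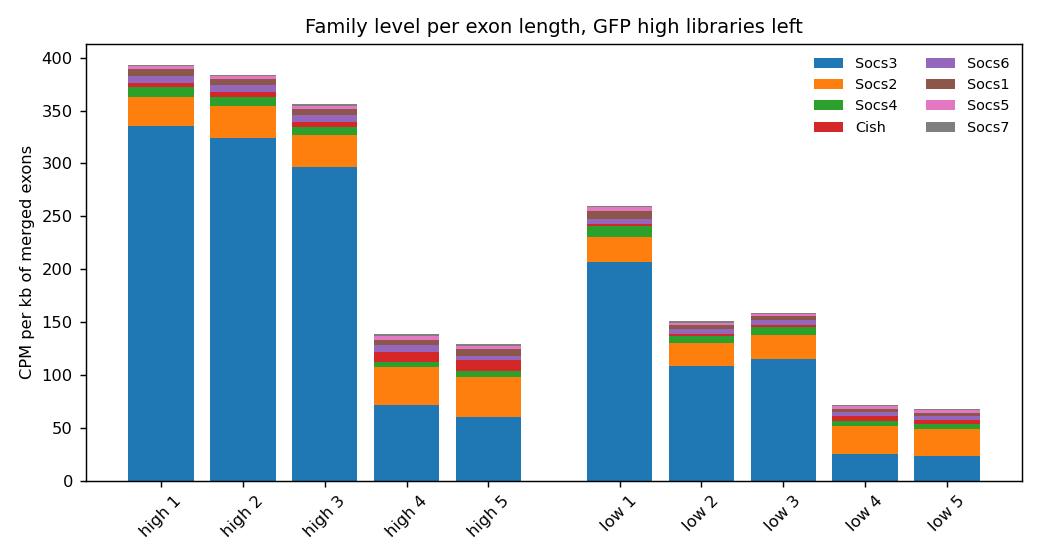
Level of the family in each library (y axis, CPM per kb of merged exons, stacked by member), with the 5 GFP high libraries left of the 5 GFP low libraries. Socs3 makes up 46.8% to 85.2% of the GFP high bars and 34.2% to 79.5% of the GFP low bars, with the lowest shares in libraries 4 and 5 of each group.

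The libraries numbered 1 to 3 and 4 and 5 differed in opposite directions for the most raised genes. Socs3 averaged 920.5 CPM in GFP high libraries 1 to 3 and 191 CPM in GFP high libraries 4 and 5, against 414.5 and 71.0 CPM in the same sets of GFP low. Cish averaged 28.6 CPM in GFP high libraries 1 to 3 and 63.2 CPM in GFP high libraries 4 and 5, against 9.15 and 25.6 CPM in the same sets of GFP low. Among 9950 tested genes with a mean of at least 5 CPM, ranked by the ratio of mean CPM (plus 1) in the 6 libraries numbered 1 to 3 over that in the 4 numbered 4 and 5, Socs3 was in place 10 from the top and Cish in place 27 from the bottom. Socs4 was also higher in all 6 libraries numbered 1 to 3 than in all 4 others. These sets hold both groups in equal numbers, so they do not coincide with the GFP groups, and no label says what they are.

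By Pearson's correlation of log2 CPM over the 10 libraries, among 9291 protein-coding genes, the genes most like Cish were Slc31a2, Tarbp1 and Mgat1 (r = 0.984 to 0.988), and those named for Socs2 were Tesk1 and Klf3 (r = 0.979 to 0.986). For Socs3 they were Jun, Gramd1a and Akap8l (r = 0.984 to 0.986). Jun, an AP-1 transcription factor induced within minutes of stimulation, averaged 1675 CPM in GFP high against 986 CPM in GFP low. For Socs1 they were Ptpn12, Zfp568 and the interferon response factor gene Irf9 (r = 0.904 to 0.920), for Socs4 Spry1, Trim24 and Brd8 (r = 0.932 to 0.945), for Socs5 Phf11b, Acad12 and Lat2 (r = 0.955 to 0.960), for Socs6 Kansl1, Stxbp4 and Phc3 (r = 0.937 to 0.963) and for Socs7 Crebbp, Fbrs and Rbbp6 (r = 0.942 to 0.965). These values describe 10 libraries that share groups, numbers and the 2 sets above, and carry no test. Within the 6 libraries numbered 1 to 3 they were 0.979 to 0.997 for the genes named with Cish and 0.972 to 0.983 for those named with Socs3. They were lower there for others, at 0.625 to 0.794 for the genes named with Socs4. They were 0.766 and 0.833 for Ptpn12 and Zfp568 with Socs1, and 0.824 and 0.861 for Phc3 and Stxbp4 with Socs6. These 6 libraries hold both groups and were among the 10 used to choose the genes, so they are no separate check.

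Upstream of the family, receptor genes were raised in part. The counts of each list stand against 12.0% of all genes tested called higher and 15.4% lower in the unpaired fit, and 20.7% higher of 41.8% called in the paired fit. Of 18 receptors that act through JAK and STAT5, 13 were tested, 4 rose, 0 fell and 9 did not pass (median log2 fold change 0.105, against 0.0305 over all genes tested). In the paired fit 5 were higher and 1 lower, and the genes whose call changed were Kit, the stem cell factor receptor (1.195 ± 0.08, edgeR adjusted p = 3.43e-07, against 0.0587 unpaired), and Il21r (-0.48 ± 0.14, edgeR adjusted p = 0.0154, against 0.196 unpaired), named after their values were seen. Il7r, the IL-7 receptor alpha chain, had 1300 ± 151 CPM in GFP high against 670 ± 123 CPM in GFP low (0.96 ± 0.13, edgeR adjusted p = 0.000202), and Il2ra, a STAT5 target itself, had 251 ± 126 CPM in GFP high against 53.4 ± 19.1 CPM in GFP low. Csf2rb, the shared chain of the IL-3 and GM-CSF receptors, rose by 1.14 ± 0.23 on the log2 scale. Of 18 receptors of interferons, IL-4, the IL-6 family, G-CSF, insulin and IGF1, 13 were tested, 9 rose and 0 fell (median 0.47), and 10 rose and 0 fell in the paired fit. Il6ra, whose signal Socs3 restrains, rose by 1.45 ± 0.21, Il10ra by 1.65 ± 0.18 and Il4ra by 1.03 ± 0.12 (SE, n = 5 each).

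Most genes of the kinases and STAT factors rose. Jak1 (0.39 ± 0.07), Jak3 (0.36 ± 0.10) and Tyk2 (0.71 ± 0.15) rose, so that 3 of 4 were called (median 0.377), and Jak2 passed with the replicate block (edgeR adjusted p = 0.0203) but not without it (edgeR adjusted p = 0.140). Jak3 did not pass without both libraries numbered 3 (0.28, edgeR adjusted p = 0.0776) or within replicates 4 and 5 (0.23, edgeR adjusted p = 0.138). Of 7 STAT genes 4 rose and 0 fell (median 0.352), against 5 and 0 in the paired fit. Those called in the unpaired fit were Stat3 (0.60 ± 0.10), Stat6 (0.50 ± 0.09), Stat2 (0.62 ± 0.14) and Stat5b (0.35 ± 0.10), while Stat5a, the close relative of Stat5b, had 92.3 ± 6.79 CPM in GFP high against 81.1 ± 13.4 CPM in GFP low (0.19 ± 0.11, edgeR adjusted p = 0.236). Stat5a passed within replicates 1 to 3 (0.38, edgeR adjusted p = 0.0301) but not within replicates 4 and 5 (-0.057, edgeR adjusted p = 0.774). Stat5b did not pass without both libraries numbered 3 (0.36, edgeR adjusted p = 0.0598).

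Subunits of the ligase that SOCS boxes recruit were lower where they were called. Of 9 subunits and cofactors, 0 rose, 4 fell and 5 did not pass (median -0.319, against 0.0305 over all genes tested). The genes that fell were Elob (-0.55 ± 0.09, 114 ± 13.7 CPM in GFP high against 167 ± 5.604 CPM in GFP low), Rbx1 (-0.41 ± 0.08), Rnf7, the ring subunit that pairs with cullin 5 (-0.36 ± 0.08, but -0.19 and not called within replicates 4 and 5, edgeR adjusted p = 0.118), and Eloc (-0.36 ± 0.09), the last named after its values were seen. With the replicate block 6 fell and 1 rose. Cul5, the scaffold itself, had 90.4 ± 6.88 CPM in GFP high against 90.6 ± 4.56 CPM in GFP low (± SD, n = 5 per group).

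Other genes with a SOCS box, which share the ligase but not the SH2 domain, had 4 of 16 tested members higher and 0 lower (median 0.127), and in the paired fit 5 higher and 1 lower. The gene called lower there was Asb2, named after its values were seen, with 3.10 ± 1.49 CPM in GFP high against 4.96 ± 1.34 CPM in GFP low (edgeR adjusted p = 0.0471, against 0.194 unpaired). Asb13 (0.62 ± 0.14), Spsb1 (0.75 ± 0.23) and Rab40c (0.51 ± 0.17) were the named ones that rose, and leaving out single libraries ended the call of Spsb1 in 5 of 10 fits and of Rab40c in 6 of 10. Asb13 was not called within replicates 4 and 5 (0.36, edgeR adjusted p = 0.155), Spsb1 was not within replicates 1 to 3 (0.62, edgeR adjusted p = 0.0611), and Rab40c was called in neither replicate set. Of 18 tested genes listed as other restraints of JAK and STAT signalling, 3 rose, 1 fell and 14 did not pass (median 0.173). The paired fit called 8 higher and 1 lower. The list is broad and includes Sh2b1, Ptpn11, Dusp4 and Dusp6, whose role as restraints was not examined here. The genes called without the block were Sh2b2 (1.33 ± 0.31, 7.33 CPM in GFP high against 2.89 CPM in GFP low), the interferon-induced protease gene Usp18 (0.53 ± 0.14) and Pias4 (0.38 ± 0.10), which rose, and Sh2b3, the JAK2 inhibitor known as LNK, which fell by 0.46 ± 0.11 to 94.0 ± 12.8 CPM in GFP high against 129 ± 15.4 CPM in GFP low. Within replicates 4 and 5, Sh2b2 (1.02, edgeR adjusted p = 0.0539), Pias4 (0.31, edgeR adjusted p = 0.171) and Sh2b3 (-0.33, edgeR adjusted p = 0.0612) were not called, and within replicates 1 to 3 Usp18 was not (0.58, edgeR adjusted p = 0.0519). The phosphatase gene Ptpn6 lay at the threshold (0.22 ± 0.08, edgeR adjusted p = 0.0507) and passed with the replicate block (edgeR adjusted p = 0.00672).

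Downstream, the list of STAT5 targets holds 4 family members besides 14 other tested genes. Of these 14, 4 rose and 0 fell (median 0.325), and in the paired fit 8 were higher and 1 lower. Il2ra is counted both here and among the receptors above. Osm, named after its values were seen, lay at the threshold (0.63 ± 0.22, edgeR adjusted p = 0.0498). The cyclin gene Ccnd2 rose by 1.95 ± 0.36, Il2ra by 2.23 ± 0.34 and the survival gene Bcl2 by 0.97 ± 0.18, while the kinase gene Pim1 had 75.0 ± 29.3 CPM in GFP high against 55.0 ± 27.4 CPM in GFP low and passed with the replicate block (0.51, edgeR adjusted p = 0.00136) but not without it (0.45 ± 0.37, edgeR adjusted p = 0.398).

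**Figure D5:**
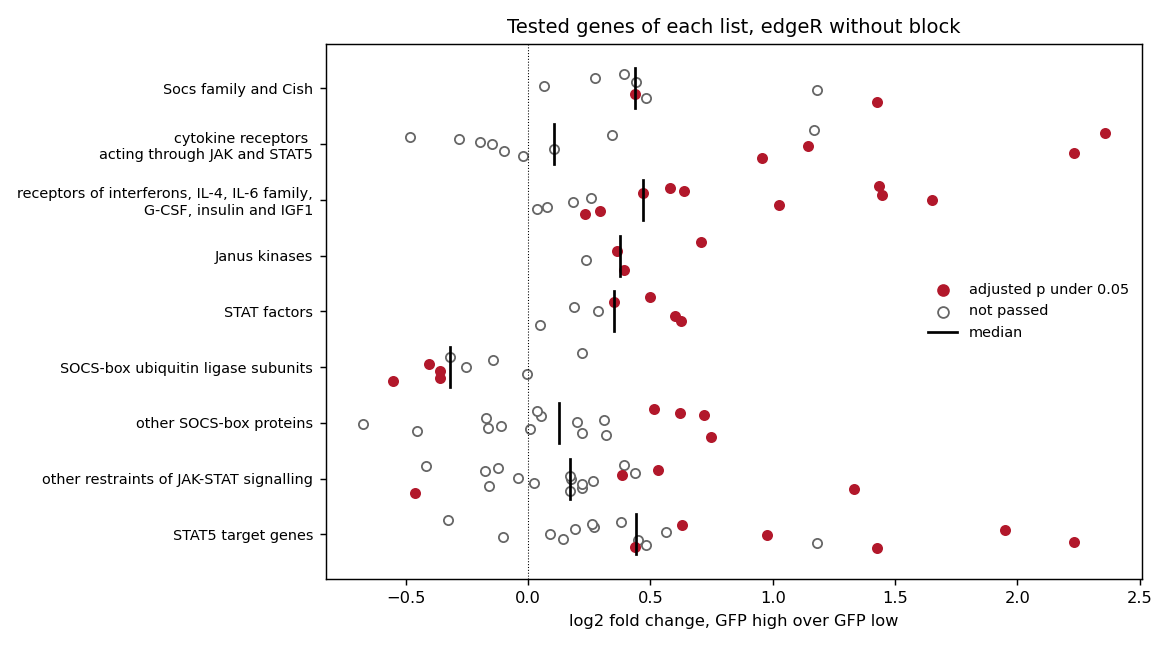
Log2 fold change, GFP high over GFP low, of every tested gene of the family and of the 8 pathway lists described (x axis), with filled points for genes past an adjusted p of 0.05 in edgeR without the block, open points for the others and a black bar at each list's median. The subunits of the SOCS-box ligase form the list whose median lies below 0, at -0.319.

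Markers of other cells were measured beside these genes. In bulk RNA, fewer cells of a type and less RNA per cell cannot be told apart. Of 8 NK-cell markers 2 were tested and 1, the lectin receptor gene Klrb1c, rose. The list summed to 187 to 329 CPM in GFP high against 63.6 to 166 CPM in GFP low, of which Klrb1c alone made up 185 to 324 CPM in GFP high against 62.6 to 165 CPM in GFP low, and Gzma and Eomes were listed at 0 in every library. Of 7 stroma and endothelium markers 2 were tested and 1, Pecam1, rose, and it made up 245 to 291 of 245 to 292 CPM in GFP high against 133 to 169 of 135 to 173 CPM in GFP low. Of 8 monocyte and macrophage markers 2 of 4 tested rose, Csf1r and Ly6c2, and in the paired fit all 4 were higher. Csf1r had 19.2 to 30.7 CPM in GFP high against 3.53 to 8.18 CPM in GFP low (edgeR adjusted p = 3.53e-05). The list summed to 80.2 to 125 CPM in GFP high against 44.97 to 88.2 CPM in GFP low, most of it from Lyz2. Neutrophil markers summed to 3.72 to 10.7 CPM in GFP high against 3.39 to 7.99 CPM in GFP low, and 0 of 3 tested were called. Sums overlapped between groups for T cells (17.95 to 24.1 CPM in GFP high, 12.9 to 26.7 CPM in GFP low, Cd8a at 0), mature B cells (947 to 1480 CPM in GFP high, 828 to 1208 CPM in GFP low), erythroid cells (15.5 to 41.2 CPM in GFP high, 7.85 to 20.3 CPM in GFP low) and basophils and mast cells (0 to 1.05 CPM in GFP high, 0 to 1.15 CPM in GFP low, Fcer1a and Ms4a2 at 0). Of these lists 1 of 3 tested T-cell genes fell, 2 of 6 mature B-cell genes and 1 of 3 erythroid genes rose, and no basophil or mast cell gene was tested. Plasma cell markers also overlapped in sum (652 to 1116 CPM in GFP high, 539 to 841 CPM in GFP low), but of 6 tested 2 rose, Sdc1 and Xbp1, and 1 fell, the immunoglobulin joining chain gene Jchain, which had 0.140 to 1.17 CPM in GFP high against 30.98 to 81.5 CPM in GFP low (edgeR adjusted p = 6.18e-06). Plasmacytoid dendritic cell markers overlapped in sum as well (969 to 1299 CPM in GFP high, 912 to 1208 CPM in GFP low), most of it from Ly6d, Tcf4 and Irf8. Of 5 tested 2 rose, Tcf4 and the lectin gene Siglech, which had 1.46 to 5.75 CPM in GFP high against 0 to 0.283 CPM in GFP low (edgeR adjusted p = 0.00023). In the paired fit 4 plasma cell genes were higher and 1 lower, and 3 mature B-cell genes were higher and 1 lower. That fit also called 2 erythroid genes and 1 neutrophil gene higher, where 20.7% of all genes tested were called higher. The part of other cells in the changes of the family was not tested.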

How the data were processed

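The authors deposited raw counts of reads for each Ensembl gene in 10 libraries. STAR, featureCounts, DESeq2 and the build mm10 are listed in the submitters' processing notes, and per the labels' protocols polyadenylated RNA was amplified with a template-switching kit for low input. Strand use in counting and the treatment of reads with several matches are not given in the sources used here. Symbols, positions and merged exon lengths came from GENCODE M21 (GRCm38, the build mm10), and 99.8% of identifiers matched. All 8 members were matched by identifier.

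GFP high was compared with GFP low in edgeR 4.0.16 under R 4.3.3 (filterByExpr defaults, TMM scaling, glmQLFit and glmQLFTest, no covariate, Benjamini-Hochberg over 12772 genes, threshold 0.05). Each SE is the log2 fold change divided by the square root of its F value. CPM used TMM-scaled library sizes. Groups and numbers came from the titles. Same-numbered libraries deviated together from their group means (r = 0.248 to 0.353 over genes in the 5 pairs, each library most like its own number), so the numbers were taken to pair the libraries. No libraries of a group agreed within sampling noise (lowest chi-square per gene 6.92). Alternatives were the replicate block, RLE scaling, library totals, other filters, DESeq2 1.42.0, limma-voom (limma 3.58.1) and leaving out each library. Both replicate sets, the pair numbered 3 left out and DESeq2 with the block were added after the data were seen. The unpaired test was tried on simulated counts of the same genes, without pairs or replicate sets. It recovered 35.8% of genes changed 1.5-fold, 65.7% changed 2-fold and 78.8% changed 4-fold. Of its 131 calls 11 were false. A change near 1.5-fold or smaller could thus be missed, and so could part of the changes of 2-fold and 4-fold. The simulation does not cover the paired fit.

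The members and lists were chosen with earlier results of these data known. Named were all members, up to 3 genes of lowest p in each direction from each list, 11 fixed genes, and the 3 genes of highest correlation with each member (log2 CPM, prior count 2, mean of at least 5 CPM). Some named genes and lists are not reported here.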

Additional observations from a re-analysis of the deposited data

Results flagged for a closer look

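Socs7 in GFP high library 3, at 16.9 CPM, lay far above the other 4 GFP high libraries, which ranged from 8.57 to 10.8 CPM. The gap to the nearest library was 0.73 of the group's range, above the 0.71 that Dixon's test allows for 5 libraries. Of 16 groups of values examined (8 members in 2 groups) this was the 1 that passed that limit, and chance gives about 1 in 20.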

How the results depend on the processing

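Cish and Socs2 kept their direction and their call under all 21 alternatives, with log2 fold changes of 1.24 to 1.68 and 0.38 to 0.51. With the replicate block 6 members were called higher, as with DESeq2 and the block, and 4 in replicates 4 and 5 alone (Cish, Socs1, Socs2 and Socs3), while leaving out single libraries gave 2 to 3. Over all genes, 1538 were called higher, against 2645 with the replicate block, 2795 with DESeq2 and the block and 926 without both libraries numbered 3. Socs4 ranged from -0.019 to 0.25 with single libraries left out, below 0 without GFP high library 2, GFP low library 4 or GFP low library 5. Stat5a was -0.057 in replicates 4 and 5 alone, but 0.38 and called in replicates 1 to 3 alone (edgeR adjusted p = 0.0301). The cause was not tested. Of 609 values of 29 named genes outside the family, 567 kept direction and side of the threshold, 27 lost and 14 gained the call. Among these 29 the replicate block changed the call of Pim1 and Ptpn6 and of no other. Each member had 95 or more counts in every library, and 5 libraries a group limit the precision of the smaller changes.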

Other observations

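Besides Socs3 and Socs4, other genes of the pathway lists separated the libraries by number. Of 104 tested genes of these lists outside the family, 14 were higher in all 6 libraries numbered 1 to 3 than in all 4 numbered 4 and 5, and 4 were lower, against 5.83% and 4.88% of all genes tested. Irf1, an interferon-induced transcription factor gene, ranged from 382 to 453 CPM in libraries 1 to 3 and from 98.6 to 169 CPM in libraries 4 and 5. Junb, an AP-1 gene, ranged from 380.3 to 592 CPM and from 94.4 to 182 CPM in the same sets, and Pim1 from 67.5 to 100.3 CPM and from 25.5 to 48.9 CPM. Ccnd3 went the other way, with 1029 to 1291 CPM in libraries 1 to 3 and 1406 to 1718 CPM in libraries 4 and 5. The 4 genes were picked with their values in view, and no test was made.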
